A study of Arabidopsis thaliana with 12 samples.

Results

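The comparison set the 3 libraries made after 4 h on dexamethasone (DEX) against the 3 made after 1 h on DEX, across all genes, and it used 6 of the 12 libraries of the series. All 6 were prepared from meristems of the root, taken from Arabidopsis thaliana seedlings 5 days old and grown at 22 °C. The seedlings had the Col-0 background and the construct pRPS5A::DOF2.1-GR, and they were moved to medium with 10 µM DEX. The construct joins DOF2.1, a transcription factor with a single DOF zinc finger, to the part of the glucocorticoid receptor that keeps the fusion out of the nucleus until DEX is added, and the RPS5A promoter drives it in dividing cells. Each sample pooled 300 root tips, and the labels give 3 biological repeats for each time. The other 6 libraries came from the same line after 2 h on DEX and from a control at 1 h, which carried the construct too and whose medium is not given, and their levels are quoted where they help to place a gene. No control at 4 h was analysed here, so the longer action of DOF2.1-GR cannot be told apart from 3 further hours after transfer, the action of DEX itself, the time of day or the age of the seedlings.

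DOF proteins bind short promoter sequences around the letters AAAG. In the root meristem several of them are produced in the young vascular tissue downstream of auxin and the TMO5/LHW pair of bHLH factors, and they promote the divisions that widen the vascular cylinder. TETRASPANIN1/TORNADO2 (TRN2), named in the title of the series, is a membrane protein that acts in the patterning of root tissues.

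Of 28775 loci in the files, 19476 had enough counts to be tested. The level of a gene is given below as normalized CPM (counts scaled to a common library total), a change as the log2 fold change of 4 h over 1 h with its standard error (SE), and a gene counted as called at an adjusted p under 0.05. Totals ran from 17162750 to 17522834 counts at 1 h and from 14142082 to 16149889 at 4 h. The first principal component of the 6 libraries held 70.4% of the variance, with the 1 h libraries between -45.9 and -21.3 and the 4 h libraries between 29.3 and 37.2. The 1 h libraries were spread more widely than the 4 h libraries along it. Ribosomal RNA loci held 0.194% to 0.283% of the counts at 1 h and 0.426% to 0.865% at 4 h, and the part of this rise in the other differences was not tested. Whether the counting used the strand is not given in the sources used here, so the reads of HSP17.4, TCH3, GolS1, GolS4, COI1, ABI1, ASN1, ARR9, AUR2, ICU2, BRX1-1, SGN3, CESA7, TRN2, BOA, PYK10 and JAL34 may come in part from a gene on the other strand. Counts of HSFB1, HSP101, PSRP3/1, AT5G15200, KIN1, KIN2, ARR8, BOA, TMO5, LHW, RHD6, CYP82C4, PYK10, JAL34 and AT3G41768 were not whole, and how the fractions arose is not given in the sources used here.

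Between 1 h and 4 h the meristems gained transcripts of heat shock chaperones, endoplasmic reticulum chaperones, ribosomal proteins, light-harvesting and photosystem proteins and some mitotic genes. They lost transcripts of dehydration and cold response genes, of some jasmonate genes and many auxin response genes, of vascular markers and of several DOF genes. In all 8190 genes were called, 42.1% of those tested, of which 4031 were higher at 4 h (20.7%) and 4159 were lower (21.4%). With libraries scaled by their totals alone the split moved to 3045 higher and 5135 lower, so that the balance of the directions rested on the scaling. Most differences were small, with a median absolute log2 fold change of 0.54 among called genes. A change of at least 2-fold was seen for 430 higher genes (2.21%) and 833 lower genes (4.28%), and one of at least 4-fold for 35 higher and 141 lower genes. The median over all genes tested was 0.0063 on the log2 scale, and the biological coefficient of variation was 10.4%. In 54.2% of the loci tested, and in 7989 of the 8190 called, the 1 h and 4 h libraries did not overlap, and each mention of overlap below is to be read against that. Genes picked for their change by the naming rule, described with the processing, had to be without overlap, so for them it is no finding.

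**Figure D1:**
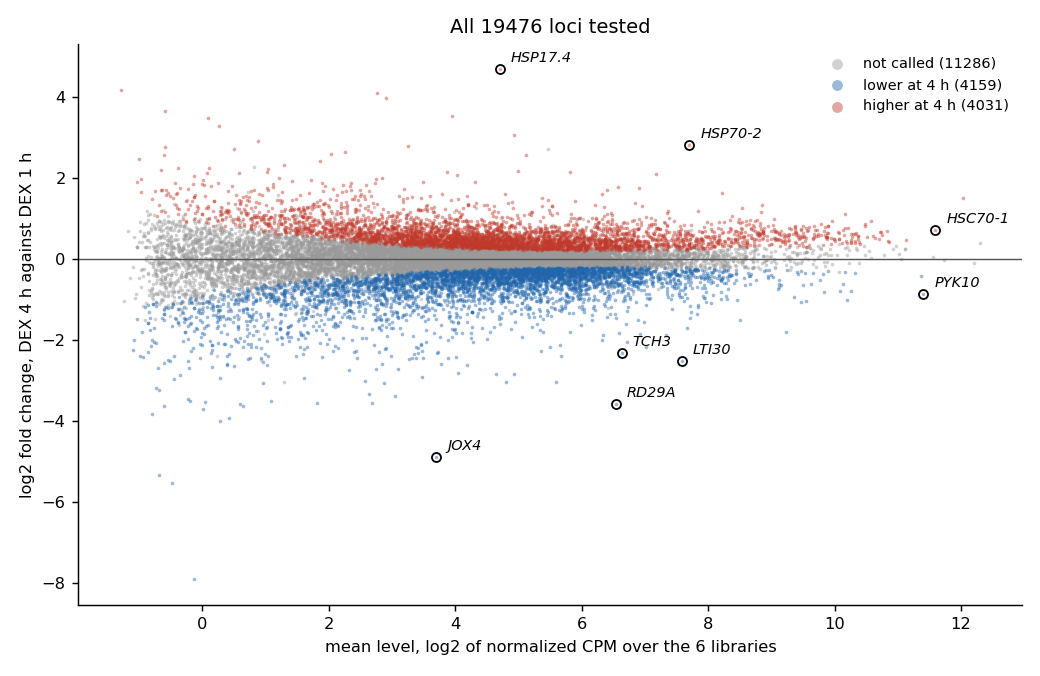
Log2 fold change of DEX 4 h against DEX 1 h (y axis) by mean level over the 6 libraries (x axis, log2 of normalized CPM) for the 19476 loci tested. Red points (4031) were called higher at 4 h, blue points (4159) lower, and grey points were not called. The blue cloud reaches further from 0 than the red one, and HSP17.4 and JOX4 lie at the edges among well-counted genes.

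Promoter stretches are shown for 6 genes of the groups described below, chosen because each holds the sequence for which its group is known, so their matches are no test. Each is the 250 bases before the gene's start in RefSeq's annotation of TAIR10.1, read on the gene's strand. Capitals mark the sequence searched for, on either strand: GAANNTTC, the core of the heat shock element, for HSP17.4; CCGAC, the core of the dehydration and cold response element, for RD29A and ERD7; AAACCCTA (telo-box) and TGGGCC (site II form) for the ribosomal protein gene AT5G15200; CACGTG (G-box) for PSB28; and AACGG, the core of the mitosis-specific activator element, for CYCB1;1. A match on the other strand reads GGCCCA for the site II form and TAGGGTTT for the telo-box. The stretches are chr3:16984868-16985117 (minus strand) for HSP17.4, chr5:21240467-21240716 (plus strand) for RD29A and chr2:7757930-7758179 (minus strand) for ERD7. They are chr5:4936430-4936679 (minus strand) for AT5G15200, chr4:14149599-14149848 (plus strand) for PSB28 and chr4:17624309-17624558 (minus strand) for CYCB1;1.
HSP17.4: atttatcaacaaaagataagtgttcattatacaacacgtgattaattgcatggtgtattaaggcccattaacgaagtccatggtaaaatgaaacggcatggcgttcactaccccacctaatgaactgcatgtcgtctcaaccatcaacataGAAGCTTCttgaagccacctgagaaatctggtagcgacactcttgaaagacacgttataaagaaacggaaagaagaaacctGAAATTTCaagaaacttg
RD29A: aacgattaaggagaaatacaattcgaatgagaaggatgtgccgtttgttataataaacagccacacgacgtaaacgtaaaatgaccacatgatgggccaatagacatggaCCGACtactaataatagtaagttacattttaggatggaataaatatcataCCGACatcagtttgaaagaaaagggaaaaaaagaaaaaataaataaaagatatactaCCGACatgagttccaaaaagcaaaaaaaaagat
ERD7: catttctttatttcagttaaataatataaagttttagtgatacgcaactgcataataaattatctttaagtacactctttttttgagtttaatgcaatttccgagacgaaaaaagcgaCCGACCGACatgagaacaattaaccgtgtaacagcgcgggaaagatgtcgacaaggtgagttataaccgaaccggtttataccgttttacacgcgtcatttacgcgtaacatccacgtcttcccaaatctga
AT5G15200: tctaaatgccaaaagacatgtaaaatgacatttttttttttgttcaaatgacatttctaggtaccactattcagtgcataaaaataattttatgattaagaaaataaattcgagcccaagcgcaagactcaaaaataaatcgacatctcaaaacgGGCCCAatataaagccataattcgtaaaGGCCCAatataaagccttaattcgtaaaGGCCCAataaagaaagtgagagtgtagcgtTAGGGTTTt
PSB28: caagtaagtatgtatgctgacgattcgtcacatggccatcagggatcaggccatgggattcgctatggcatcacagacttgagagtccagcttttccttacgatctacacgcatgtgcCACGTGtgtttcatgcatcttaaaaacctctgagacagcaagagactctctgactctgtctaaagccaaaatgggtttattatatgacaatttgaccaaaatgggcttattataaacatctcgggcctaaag
CYCB1;1: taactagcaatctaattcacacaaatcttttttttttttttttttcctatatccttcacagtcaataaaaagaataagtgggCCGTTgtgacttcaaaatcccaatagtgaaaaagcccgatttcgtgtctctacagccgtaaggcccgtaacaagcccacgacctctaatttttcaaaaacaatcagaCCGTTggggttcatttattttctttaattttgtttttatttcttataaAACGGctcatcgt

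Cytosolic heat shock genes had the largest median rise of the 20 lists examined. Of 26 tested members, 19 were higher at 4 h (73.1%, against 20.7% over all genes), 2 were lower and 5 were not called. Their median log2 fold change was 1.1 against 0.0063 over all genes. Small heat shock proteins, which hold unfolding proteins in solution, led the group. HSP17.4 (AT3G46230) measured 1.29, 2.42 and 2.22 CPM at 1 h and 41.03, 39.5 and 70.7 CPM at 4 h, with 3.13 to 6.16 CPM in the control libraries. The difference was 4.67 ± 0.35 on the log2 scale (SE, adjusted p = 0.000242). HSP17.6A (AT5G12030) went from 0.269, 1.101 and 0.878 CPM to 9.39, 9.96 and 19.1 CPM, and HSP17.6C (AT1G53540) from 0.484, 1.16 and 1.05 CPM to 11.01, 13.8 and 17.76 CPM. For each of these genes every 4 h library lay above every 1 h library, which the naming rule required. HSP17.8 (AT1G07400) had a log2 fold change of 3.51 ± 0.30 (adjusted p = 0.000185), and HSP17.6II one of 2.43.

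The ATP-driven chaperones and their partners followed with smaller changes from higher starting levels. HSP70 (AT3G12580), which refolds proteins, measured 39.5, 65.8 and 61.1 CPM at 1 h and 242, 221 and 243 CPM at 4 h, a log2 fold change of 2.08 ± 0.17 (adjusted p = 5.31e-05). HSP90.1 (AT5G52640), a chaperone of signalling proteins, measured 30.1, 50.2 and 48.7 CPM at 1 h and 159, 150 and 135 CPM at 4 h. ROF2 (AT5G48570), an FKBP-type co-chaperone, measured 17.9, 22.3 and 22.0 CPM at 1 h and 97.3, 96.0 and 82.9 CPM at 4 h. None of these overlapped between the times, which the naming rule required of ROF2. In HSP70 and HSP90.1 the control libraries, at 82.2 to 124 CPM and 76.6 to 106 CPM, lay between the 1 h and 4 h libraries. HSP70-2 (AT5G02490) rose from 40.4, 48.2 and 68.4 CPM to 366, 408 and 320 CPM, and the constitutive HSC70-1 (AT5G02500) from 1918, 2401 and 2697 CPM to 4174, 4087 and 3248 CPM. Counts of these latter genes were not whole in the files, and the division between near-identical copies is uncertain. The factor HSFA2 (AT2G26150), an activator of heat shock genes, rose by 1.54 ± 0.31 on the log2 scale. The class B factors HSFB1 (AT4G36990) and HSFB2A (AT5G62020), which repress such genes, had log2 fold changes of -0.88 and -0.46. HSP101, the disaggregating chaperone, measured 15.3 to 26.8 CPM at 1 h and 29.4 to 30.6 CPM at 4 h and was not called (adjusted p = 0.0645).

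Summed over the 26 members, the level was 3670, 4650 and 5240 CPM at 1 h, 8740, 8210 and 7910 CPM at 2 h and 8930, 8820 and 7180 CPM at 4 h. The control libraries held 5570, 5840 and 6710 CPM, above each 1 h library and below each 4 h library. AT5G51440, an HSP20-like chaperone outside the list, was among the steepest risers as well, at 4.79, 11.2 and 14.4 CPM at 1 h and 67.3, 55.0 and 55.3 CPM at 4 h. Of 26 tested genes annotated as HSP20-like chaperones, 10 were higher, 2 lower and 14 not called. Over all genes 42.1% were called, 20.7% higher and 21.4% lower. The letters GAANNTTC stood in 9 of 26 promoters of the list (34.6%) and in 11.3% of the 19382 promoters of tested genes, counted from 250 bases before to 50 after the start. They stood in 12% of those of genes at least 2-fold higher and 12.2% of those at least 2-fold lower. The touch and wounding list described below held them in 30%. HSP17.4 holds 2 such stretches in the sequence printed above, while none was found in the windows of HSP17.6A and HSP70-2.

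Several chaperones of the endoplasmic reticulum rose. Of 20 tested genes of the unfolded protein response, 11 were higher (55%, against 20.7% over all genes), 2 lower and 7 not called. The median was 0.47. Calnexin CNX1 (AT5G61790), a lectin chaperone, measured 384, 453 and 540 CPM at 1 h and 805, 853 and 693 CPM at 4 h, a log2 fold change of 0.77 ± 0.14 (adjusted p = 0.00121). SDF2 (AT2G25110) measured 98.6, 107 and 125 CPM at 1 h and 181, 184 and 188 CPM at 4 h. The highest 1 h library stayed below the lowest 4 h library in both genes, which the naming rule required. TIN1 (AT5G64510), a tunicamycin-induced gene of low level, had a log2 fold change of 2.00 ± 0.35 (adjusted p = 0.00119). The sensor IRE1A (AT2G17520), which splices the mRNA of bZIP60, was lower, at 38.9, 33.2 and 28.2 CPM against 20.6, 20.9 and 21.9 CPM. With loci of whole counts only, 6 members were called higher and the median was 0.19.

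**Figure D2:**
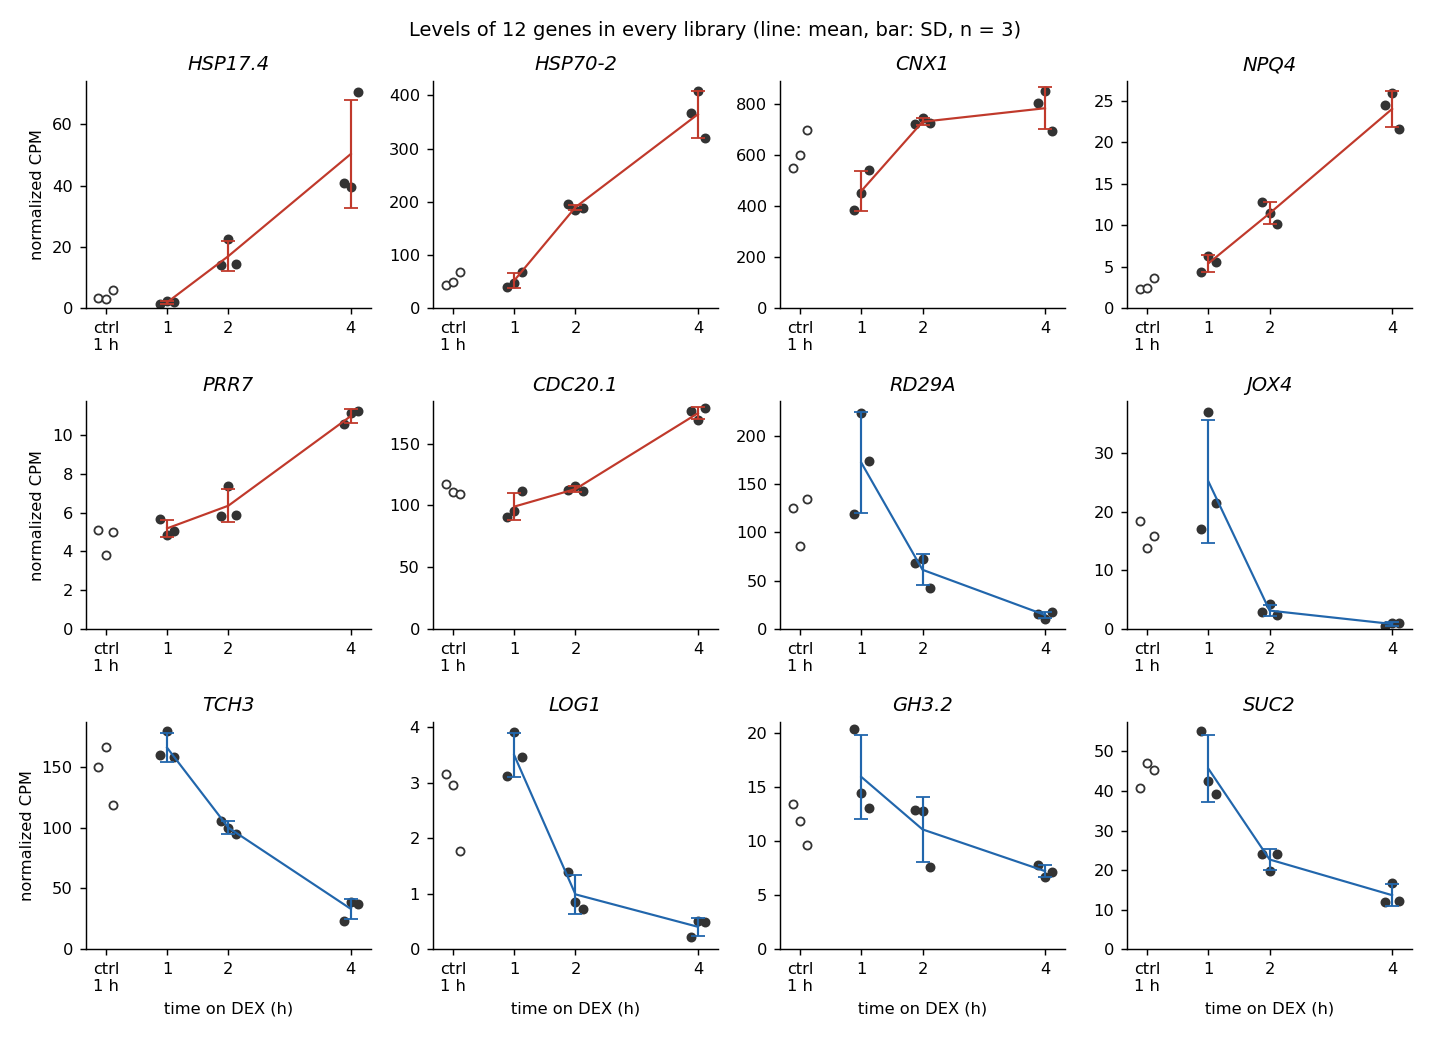
Normalized CPM (y axis, from 0) of 12 genes by time on DEX in hours (x axis), with each library as a filled point, the mean of 3 libraries on the line and the SD as a bar. Open points are the 3 control libraries at 1 h. Genes with red lines ended above their 1 h libraries and genes with blue lines below, and the 2 h libraries mostly lay between.

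Ribosomal proteins made up the broadest rise. The list held 300 tested genes annotated as ribosomal proteins and not assigned there to an organelle. Of these, 240 were higher at 4 h (80%, against 20.7% over all genes), 3 were lower and 57 were not called. The median was 0.53. A stricter list, with names of the eukaryotic form only and drawn up after the data had been seen, gave 94 higher and 1 lower of 115. The summed level of the 300 was 81400, 94200 and 113000 CPM in the 1 h libraries, 99800 to 101000 CPM in the control and 146000, 136000 and 140000 CPM at 4 h. The 1 h libraries thus differed among themselves by more than the 4 h libraries did. AT5G15200, a ribosomal protein of the S4 family, measured 1096, 1280 and 1528 CPM at 1 h and 2132, 1994 and 2107 CPM at 4 h, a log2 fold change of 0.67 ± 0.14 (adjusted p = 0.0026). The steepest riser on the list, PSRP3/1 (AT1G68590), has a plastid-type name, and it measured 3.174, 2.53 and 2.93 CPM at 1 h and 10.4, 11.5 and 12.3 CPM at 4 h. Counts of 120 of the 300 genes were not whole, and with whole counts only 143 were called higher. With offsets for GC content and length 189 were called higher and the median was 0.34.

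The telo-box stood in 37.7% of the 300 promoters and in 5.57% of all tested promoters, and the site II form in 56.3% and 19%. Among all genes called higher, which include these ribosomal genes, they stood in 8.58% and 26.9%. Among genes called lower they stood in 2.96% and 12.1%. Among genes at least 2-fold higher they stood in 4.09% and 17.5%, below the shares of all tested promoters. Among genes at least 2-fold lower they stood in 2.67% and 6.06%. The printed stretch of AT5G15200 holds 3 site II forms followed by a telo-box next to the start. Genes of ribosome assembly changed less. Of 16 tested, 4 were higher, 2 were lower and 10 were not called, with a median of 0.11, and 1 or 2 were higher without any 1 of 1 h replicates 1 and 2 and the 4 h libraries, or with library totals. In all 37.5% were called, against 42.1% over all genes. The median was 0.048 without 1 h replicate 1 and 0.21 without 1 h replicate 3. BRX1-1 (AT3G15460), which acts in the maturation of the large subunit, had a log2 fold change of 0.52 ± 0.10 (adjusted p = 0.00154). The locus with the largest gain in CPM was AT3G41768, an 18S ribosomal RNA, at 1748, 2095 and 2738 CPM at 1 h and 5808, 4252 and 8504 CPM at 4 h.

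Nuclear genes of photosynthesis rose from low levels. Of 57 tested, 37 were higher (64.9%, against 20.7% over all genes), 20 were not called and 0 were lower, with a median of 0.69. None of them was lower at an unadjusted p under 0.05 in edgeR, and DESeq2 and limma voom also gave 0 lower, while offsets for GC content and length gave 1 lower and 30 higher, and leaving out 4 h replicate 1 gave 1 lower and 39 higher. NPQ4 (AT1G44575), the photosystem II subunit that senses excess light, measured 4.36, 6.33 and 5.56 CPM at 1 h, 11.4 ± 1.34 CPM (SD, n = 3) at 2 h and 24.5, 25.9 and 21.6 CPM at 4 h. Its log2 fold change was 2.15 ± 0.14 (adjusted p = 2.36e-06), and the control libraries held 2.34 to 3.66 CPM. PSB28 (AT4G28660), a photosystem II assembly protein, measured 6.19, 6.49 and 7.44 CPM at 1 h and 18.1, 17.38 and 14.2 CPM at 4 h. PSBY (AT1G67740), a small photosystem II subunit, had a log2 fold change of 1.55 ± 0.14 (adjusted p = 1.81e-05). The light stress genes ELIP1 and ELIP2 were not called, at mean levels of 114 and 75.1 CPM at 1 h and 88.1 and 82.9 CPM at 4 h.

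The summed level of the 57 genes was 490, 540 and 498 CPM at 1 h, 779, 730 and 717 CPM at 4 h and 349 to 372 CPM in the control. Of 8 markers of shoot and leaf, the small Rubisco subunit RBCS1A alone had enough counts to be tested, at 1.99 to 3.44 CPM at 1 h and 2.79 to 4.08 CPM at 4 h, and it was not called. The other 7, among them LHCB1.1 and LHCB2.1, stayed too low to be tested. The G-box stood in 35.7% of 56 promoters of the group against 8.71% of all tested promoters. It stood in 12.7% of those of genes at least 2-fold higher and 9.58% of those at least 2-fold lower. The clock list held it in 46.2% and the unfolded protein response list in 45%.

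Some mitotic genes rose. Of 27 mitotic genes tested, 13 were higher, 1 was lower and 13 were not called, with a median of 0.22. In all 51.9% were called, against 42.1% over all genes, and 48.1% were higher against 20.7%. CDC20.1 (AT4G33270), an activator of the anaphase-promoting complex, measured 90.27, 95.3 and 112 CPM at 1 h, 113, 116 and 111 CPM at 2 h and 176, 169 and 179 CPM at 4 h. CDC20.1 had a log2 fold change of 0.82 ± 0.09 (adjusted p = 9.23e-05), and its counts were not whole. Its relative CDC20.2 (AT4G33260), whose counts were not whole either, rose by 0.72. The kinase gene AUR2 (AT2G25880) measured 17, 16.6 and 18.21 CPM at 1 h and 26.4, 29.1 and 27.9 CPM at 4 h. The cyclin CYCB1;1 (AT4G37490) measured 15.01, 18.4 and 20.5 CPM at 1 h and 32.2, 27.8 and 23.9 CPM at 4 h. The times did not overlap in any of these genes, which the naming rule required of CDC20.1, CDC20.2 and AUR2. The cyclin CYCA2;2 was the single lower member, with a log2 fold change of -0.58. The letters AACGG stood in 66.7% of the promoters of the list and in 26.4% of all tested promoters. They stood in 28.4% of those of genes at least 2-fold higher and 21.9% of those at least 2-fold lower.

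Of 21 tested replication genes, 3 were higher, 7 were lower and 11 were not called, 47.6% called against 42.1% over all genes. Their median of -0.15 turned to 0.038 with offsets for GC content and length. With these offsets 2 were higher and 3 lower. Without 1 h replicate 2 or 4 h replicate 1 the lower genes were 4 and the higher 0, and without 1 h replicate 1 or 4 h replicate 2 or 3 the higher genes were 1. ICU2 (AT5G67100), the catalytic subunit of DNA polymerase alpha, measured 50.1, 49.1 and 35.7 CPM at 1 h and 28.1, 30.4 and 25.3 CPM at 4 h, a log2 fold change of -0.69 ± 0.13 (adjusted p = 0.00207). The helicase subunit MCM2 (AT1G44900) measured 60.3, 62.2 and 53.5 CPM at 1 h and 45.5, 46.1 and 41.04 CPM at 4 h. Among 42 tested histone genes 16 were higher and 4 lower, 47.6% in all against 42.1% over all genes, with a median of 0.27. These histone calls depended on the correction for GC content and length, with which 3 were higher, 10 were lower and the median was -0.021. Without 1 h replicate 1, 2 or 3 the higher histones were 10, 7 and 25, and without 4 h replicate 1, 2 or 3 the lower ones were 2, 0 and 1. HTA8 (AT2G38810), a histone H2A, measured 26.1, 27.2 and 33.3 CPM at 1 h and 47.5, 43.3 and 48.2 CPM at 4 h. It was called under each alternative setting that tested it.

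**Figure D3:**
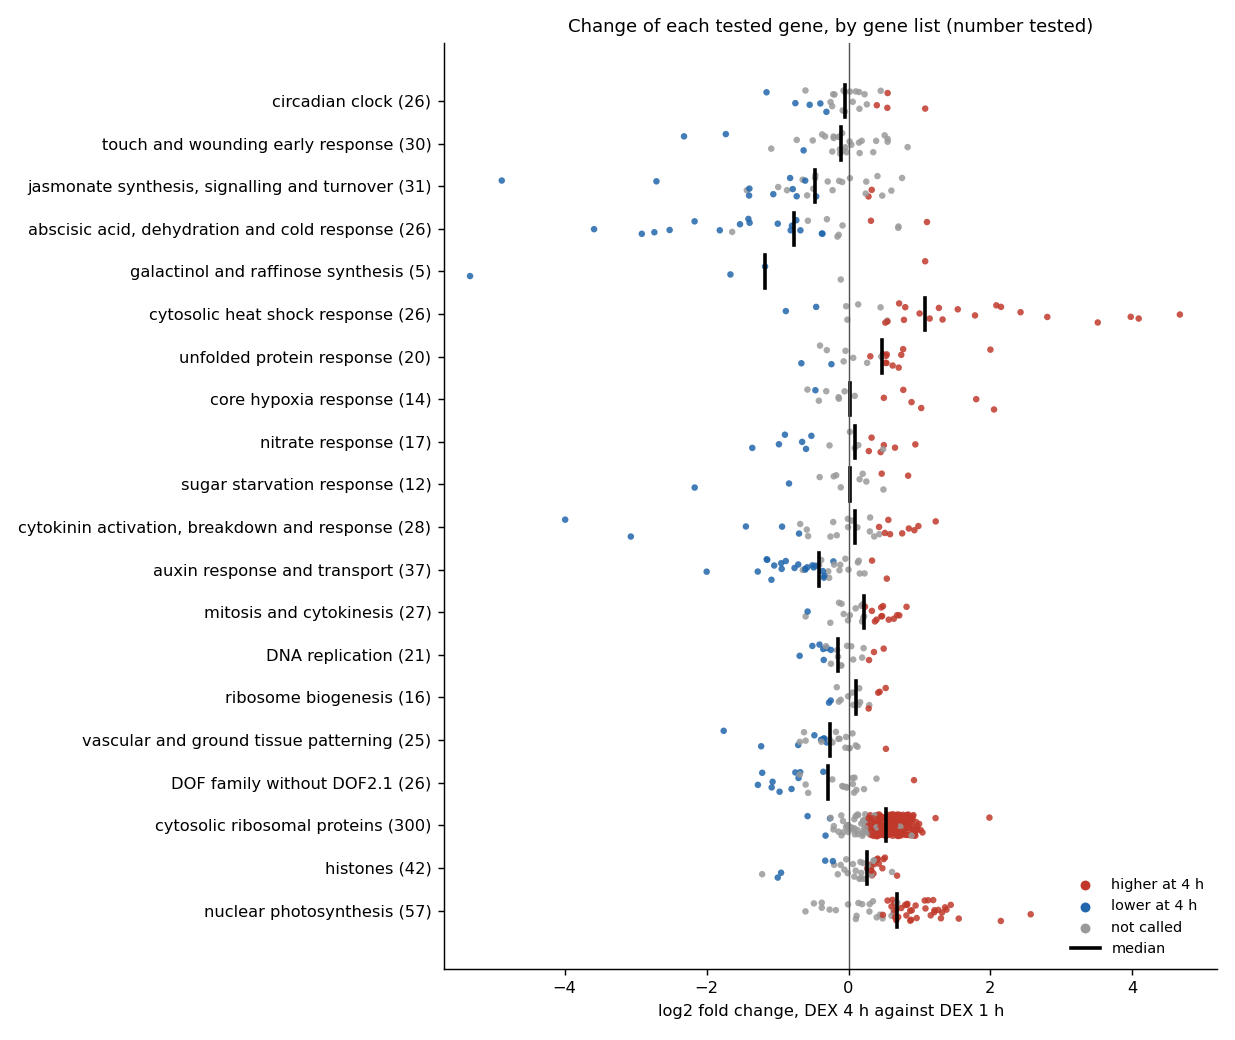
Log2 fold change of DEX 4 h against DEX 1 h (x axis) for each tested gene of 20 gene lists (y axis, number tested in brackets), with red for called higher, blue for called lower and grey for not called. Black bars are list medians. Heat shock, ribosomal protein and photosynthesis genes lie mostly to the right of 0, and dehydration and auxin genes mostly to the left.

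Genes of the response to abscisic acid, dehydration and cold fell. These include dehydrins and other protective proteins as well as the enzymes and phosphatases that turn the hormone response down. Of 26 tested, 16 were lower (61.5%, against 21.4% over all genes), 2 were higher and 8 were not called, with a median of -0.77. RD29A (AT5G52310), a classic target of the cold and drought factors, measured 119, 224 and 174 CPM at 1 h, 68.0, 72.9 and 42.8 CPM at 2 h and 15.3, 10.5 and 17.41 CPM at 4 h. RD29A thus had a log2 fold change of -3.59 ± 0.31 (adjusted p = 0.000657), and the control libraries held 86.3 to 134 CPM. The dehydrin gene LTI30 (AT3G50970) measured 307, 378 and 298 CPM at 1 h and 51.8, 45.9 and 73.7 CPM at 4 h. ERD7 (AT2G17840), a dehydration-associated protein, measured 207, 243 and 184 CPM at 1 h and 45.1, 48.8 and 47.0 CPM at 4 h. All 4 h libraries lay below all 1 h and all control libraries in these genes. For RD29A the naming rule required this of the 1 h libraries.

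The homeodomain factors HB7 (AT2G46680) and HB12 (AT3G61890), which abscisic acid induces, measured 26.5, 18.5 and 14.1 CPM and 11.7, 8.20 and 6.21 CPM at 1 h. At 4 h they measured 2.81, 1.90 and 3.18 CPM and 1.26, 1.02 and 1.66 CPM. The phosphatase ABI1 (AT4G26080), a brake on abscisic acid signalling, had a log2 fold change of -0.997 ± 0.11 (adjusted p = 8.14e-05). CYP707A3 (AT5G45340), which breaks the hormone down, had one of -1.53 ± 0.33 (adjusted p = 0.0109). KIN1 and KIN2, cold-induced genes, were not called, each with a log2 fold change of 0.70. The core CCGAC stood in 26.9% of the promoters of the list and in 16.3% of all tested promoters. It stood in 16.8% of those of genes at least 2-fold higher and 16.7% of those at least 2-fold lower. The heat shock list held it in 30.8% and the clock list in 26.9%. RD29A holds 3 such stretches and ERD7 holds 2 that overlap, in the sequences printed above.

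Galactinol and raffinose are protective sugars made under the same stresses. Of 5 tested genes of their synthesis, 3 were lower (60%, against 21.4% over all genes) and 1 was higher (20% against 20.7%). Raffinose synthase RS5 (AT5G40390) measured 86.3, 100 and 71.5 CPM at 1 h and 33.8, 39.9 and 40.5 CPM at 4 h. Galactinol synthase GolS4 (AT1G60470) measured 1.02, 1.76 and 0.878 CPM at 1 h and 0, 0 and 0.0691 CPM at 4 h, the last being 1 count, so no fold is given. GolS1 (AT2G47180) rose, from 1.99, 2.09 and 1.52 CPM to 4.14, 3.24 and 4.56 CPM.

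Jasmonate genes fell in part. Jasmonates are lipid-derived stress hormones, and the list joins enzymes that make the hormone, JAZ repressors and enzymes that inactivate it. Of 31 tested, 10 were lower, 2 were higher and 19 were not called, with a median of -0.47. In all 38.7% were called, against 42.1% over all genes, and 32.3% were lower against 21.4%. That median was -0.19 without 4 h replicate 1, -0.25 without 1 h replicate 2, -0.72 without 1 h replicate 1 and -0.80 with limma voom. JOX4 (AT2G38240), listed here as a jasmonate oxidase and annotated as a 2-oxoglutarate-dependent oxygenase, measured 17.1, 36.98 and 21.4 CPM at 1 h, 2.83, 4.21 and 2.31 CPM at 2 h and 0.517, 1.02 and 0.967 CPM at 4 h. Its log2 fold change was -4.89 ± 0.45 (adjusted p = 0.000446), and the control libraries held 13.8 to 18.4 CPM. The allene oxide cyclase AOC2 (AT3G25770), a synthesis enzyme whose counts were not whole, fell from 15.8, 13.1 and 15.6 CPM to 2.29, 2.03 and 2.49 CPM. CYP94B3 (AT3G48520), which oxidises the active conjugate, measured 22.1, 24.6 and 18.7 CPM at 1 h and 8.35, 6.85 and 9.60 CPM at 4 h. The factor MYC2 was not called, with a log2 fold change of -0.22, and the receptor gene COI1 rose by 0.33.

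Early touch and wounding genes, which handling of seedlings induces, mostly missed the threshold. Of 30 tested, 3 were lower and 0 were higher, 10% called against 42.1% over all genes, with a median of -0.10. At an unadjusted p under 0.05 edgeR gave 0 higher and 6 lower, DESeq2 gave 1 higher and limma voom 0. Without 4 h replicate 1 there were 6 higher and 3 lower, and with the replicate block 3 higher and 4 lower. TCH3 (AT2G41100), a calmodulin-like protein, measured 160, 179 and 158 CPM at 1 h, 106, 99.8 and 94.8 CPM at 2 h and 23.6, 38.8 and 37.2 CPM at 4 h, a log2 fold change of -2.32 ± 0.17 (adjusted p = 2.77e-05). The summed level of the list was 753 to 943 CPM at 1 h and 493 to 975 CPM at 4 h, so the groups overlapped. The list's median ran from -0.31 to 0.091 over the alternatives and was above 0 without 4 h replicate 1.

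Many auxin response genes fell. Of 37 tested, 21 were lower (56.8%, against 21.4% over all genes), 2 were higher and 14 were not called, with a median of -0.41. The group comprises AUX/IAA repressors and GH3 conjugating enzymes, which auxin induces, and auxin carriers. IAA19 (AT3G15540) measured 23.9, 26.9 and 29.1 CPM at 1 h and 15.6, 12.8 and 10.4 CPM at 4 h, a log2 fold change of -1.05 ± 0.14 (adjusted p = 0.000246). IAA18 (AT1G51950) measured 19.5, 16.7 and 13 CPM at 1 h and 7.61, 6.72 and 6.01 CPM at 4 h. GH3.2 (AT4G37390) measured 20.3, 14.4 and 13.1 CPM at 1 h and 7.84, 6.66 and 7.19 CPM at 4 h. None of these genes overlapped between the times, which the naming rule required of IAA18. Among efflux carriers PIN3, PIN4 and PIN7 were lower by 0.61 to 0.95 on the log2 scale, while PIN2, at -0.12, was not called. The influx carriers LAX2 (AT2G21050) and LAX3 (AT1G77690) were the 2 higher genes, with log2 fold changes of 0.54 and 0.33, whereas AUX1 had one of -0.34. The sum over the list was 2290, 2310 and 2310 CPM at 1 h and 1900, 1830 and 1670 CPM at 4 h.

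Cytokinin genes changed in both directions. LOG enzymes release the active hormone, CKX enzymes break it down, and type-A response regulators are quick readouts that damp the response. Of 28 tested genes on the list, 9 were higher, 5 lower and 14 not called. In all 50% were called, against 42.1% over all genes. The higher share was 32.1% against 20.7%, and the lower share 17.9% against 21.4%. The response regulator ARR3 (AT1G59940) measured 12.1, 14.3 and 15.1 CPM at 1 h and 35.4, 30.6 and 31.2 CPM at 4 h, a log2 fold change of 1.23 ± 0.11 (adjusted p = 1.81e-05). ARR4, ARR8 and ARR9 were also higher, by 0.59 to 0.93. The call of ARR5 (0.56, adjusted p = 0.0461) was lost without 1 h replicate 2 and without any 1 of the 4 h libraries, with a largest adjusted p of 0.122, and ARR6, ARR7 and ARR15 were not called. LOG1 (AT2G28305) measured 3.12, 3.91 and 3.45 CPM at 1 h and 0.222, 0.508 and 0.484 CPM at 4 h, and LOG5 (AT4G35190) 3.01, 1.87 and 1.99 CPM against 0, 0.0634 and 0.345 CPM. LOG7 (AT5G06300) fell too, from 51.8, 58.5 and 61.9 CPM to 28.5, 26.7 and 34.8 CPM. LOG3 and LOG4, with log2 fold changes of -0.25 and -0.57 from levels near 1 CPM, and LOG8 were not called. Among the breakdown enzymes CKX3 and CKX7 were higher, by 0.98 and 0.85, CKX1 and CKX6 had log2 fold changes of -1.45 and -0.70, and CKX5 was not called. The list's median of 0.086 changed sign when 1 h replicate 2 was left out, to -0.041.

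Clock genes showed no shared direction. Of 26 tested, 4 were higher, 5 lower and 17 not called, 34.6% in all against 42.1% over all genes, with a median of -0.05 that was 0.003 with offsets for GC content and length. The lower genes were 1 without 1 h replicate 2 or without 4 h replicate 2 or 3, 3 without 1 h replicate 1 or 4 h replicate 1, and 8 without 1 h replicate 3. PRR7 (AT5G02810), a repressor of the morning genes, measured 5.703, 4.84 and 5.03 CPM at 1 h, 5.85, 7.37 and 5.88 CPM at 2 h and 10.6, 11.2 and 11.3 CPM at 4 h. Its log2 fold change was 1.08 ± 0.13 (adjusted p = 0.00013). BOA (AT5G59570), a paralog of the evening complex factor LUX, measured 12.4, 13.6 and 13.99 CPM at 1 h and 5.62, 6.34 and 5.94 CPM at 4 h. The morning factor CCA1 and the evening genes TOC1, GI and ELF4 were not called, with log2 fold changes of 0.23, -0.25, -0.05 and -0.07. PRR7 and BOA kept their calls under each alternative that tested them, and the fit with whole counts only left out BOA.

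Nitrate genes changed in both directions. Of 17 tested, 6 were higher and 6 lower, 70.6% in all against 42.1% over all genes. HRS1 (AT1G13300), a repressor that integrates nitrate and phosphate signals, measured 24.0, 27.2 and 32.3 CPM at 1 h, 69.0, 64.2 and 74.7 CPM at 2 h and 55.1, 51.4 and 53.8 CPM at 4 h. Its relative HHO1 and the repressor LBD39 were also higher, by 0.66 and 0.50. The nitrate transporter NRT1.1 (AT1G12110) measured 219, 216 and 240 CPM at 1 h and 107, 143 and 113 CPM at 4 h, a log2 fold change of -0.90 ± 0.11 (adjusted p = 0.000156). NIA1 and NIA2, the nitrate reductases, and NIR1 had log2 fold changes of -0.98, -0.65 and -0.60. BT1 (AT5G63160), a BTB and TAZ domain protein, fell furthest, from 26.9, 26.97 and 24.5 CPM to 6.80, 9.77 and 13.96 CPM, a log2 fold change of -1.36 ± 0.20 (adjusted p = 0.00118). Of 12 sugar starvation genes 2 were higher and 2 lower, 33.3% in all against 42.1% over all genes. Among them ASN1 (AT3G47340), an asparagine synthetase, measured 77.3, 83.6 and 60.5 CPM at 1 h and 19.8, 18.7 and 10.8 CPM at 4 h.

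Hypoxia genes were mixed. Of 14 tested, 6 were higher, 1 was lower and 7 were not called, and the median of 0.017 turned to -0.069 with libraries scaled by their totals, and to -0.053 and -0.017 without 1 h replicate 3 and 4 h replicate 3. In all 50% were called, against 42.1% over all genes, and 42.9% were higher against 20.7%. PCO1 (AT5G15120) and PCO2 (AT5G39890), cysteine oxidases that mark the oxygen-sensitive factors for breakdown, measured 0.215, 0.440 and 0.820 CPM and 0.430, 0.385 and 0.234 CPM at 1 h. At 4 h they measured 1.33, 1.71 and 2.07 CPM and 1.26, 1.33 and 1.87 CPM. PDC1 (AT4G33070), a pyruvate decarboxylase of fermentation, measured 9.58, 11.6 and 10.7 CPM at 1 h and 19.7, 19.8 and 19.6 CPM at 4 h. ADH1, the alcohol dehydrogenase, was not called at 0.09.

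DOF2.1 was called lower at 4 h by less than 2-fold, and TRN2 was not called. Reads of DOF2.1 (AT2G28510) may come from the native gene and from the construct, which cannot be told apart in these counts, so its level is no check of the labels. It measured 71.4, 72.1 and 58.7 CPM at 1 h, 55.0, 56.1 and 43.5 CPM at 4 h and 79.4 to 88.3 CPM in the control. The log2 fold change was -0.39 ± 0.11 (adjusted p = 0.0179), with a largest adjusted p of 0.0781 over the alternatives, reached without 1 h replicate 2; the call was also lost without 4 h replicate 3. TRN2 (AT5G46700) measured 43.8, 36.5 and 31.8 CPM at 1 h, 32.7, 37.02 and 38.9 CPM at 2 h and 40.4, 38.95 and 41.3 CPM at 4 h. The times overlapped and the log2 fold change of 0.10 ± 0.11 was not called (adjusted p = 0.484), while the control libraries lay lower, at 22.5 to 23.6 CPM. TMO5, LHW, TMO6, HCA2, PEAR1, PEAR2 and SCR were not called, with log2 fold changes between -0.69 and 0.06. PEAR1 passed the threshold with all 12 libraries in the fit and without 4 h replicate 1, and PEAR2 with limma voom and without 1 h replicate 3. TRN1 (AT5G55540), a partner of TRN2 in root patterning, measured 23.1, 23.8 and 19.8 CPM at 1 h and 19.1, 16.9 and 18.03 CPM at 4 h. Its log2 fold change of -0.31 (adjusted p = 0.0329) was called, and the call was lost in 9 alternatives, among them leaving out 1 h replicate 1 or 2 or 4 h replicate 2 or 3 and the offsets for GC content and length, with a largest adjusted p of 0.848.

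Of 25 tested genes of vascular and ground tissue patterning, 8 were lower, 1 was higher and 16 were not called, with a median of -0.27, and the lower ones were 5, 5 and 4 without 1 h replicate 2, 4 h replicate 2 and 4 h replicate 3. In all 36% were called, against 42.1% over all genes, and 32% were lower against 21.4%. Offsets for GC content and length gave 6 lower, 3 higher and a median of -0.081, and the median was -0.15 without 1 h replicate 1. T5L1 (AT1G68810), a paralog of TMO5 with counts that were not whole, measured 20.07, 20.4 and 17.5 CPM at 1 h and 11.8, 12.6 and 11.1 CPM at 4 h, a log2 fold change of -0.71 ± 0.11 (adjusted p = 0.000537). AHP6 (AT1G80100), an inhibitor of cytokinin signalling beside the protoxylem, measured 3.34, 3.25 and 3.98 CPM at 1 h and 0.961, 2.16 and 1.31 CPM at 4 h. Both genes fell without overlap, which the naming rule required. SHR (AT4G37650), the mobile factor that specifies the endodermis, had a log2 fold change of -0.35 ± 0.10 (adjusted p = 0.0155), and the call was lost without 4 h replicate 3 (adjusted p = 0.0596). MGP (AT1G03840), a zinc finger partner of SHR, rose from 10.5, 12.7 and 12.6 CPM to 17.3, 17.5 and 16.9 CPM, with 21.3, 22.2 and 20.14 CPM at 2 h and 26.7 to 30.6 CPM in the control. The cambium factor WOX4 (AT1G46480) measured 8.77, 4.73 and 3.63 CPM at 1 h, 3.03, 0.888 and 1.24 CPM at 4 h and 0.591 to 0.936 CPM in the control. That call (adjusted p = 0.0277) was lost without 1 h replicate 2 and without 4 h replicate 2 or 3, with a largest adjusted p of 0.0771.

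Other DOF genes were lower where they were called, with 1 exception. Of 26 tested members of the family without DOF2.1, 10 were lower, 1 was higher and 15 were not called, with a median of -0.29 that was -0.44 without 1 h replicate 2. In all 42.3% were called, against 42.1% over all genes, and 38.5% were lower against 21.4%. CDF4 (AT2G34140), listed here as a cycling DOF factor, measured 41.5, 31.1 and 28.7 CPM at 1 h, 14.7, 16.7 and 15.9 CPM at 2 h and 14.05, 13.3 and 14.5 CPM at 4 h. CDF4 had a log2 fold change of -1.28 ± 0.14 (adjusted p = 6.58e-05), and the control libraries held 5.85 to 6.50 CPM, below every DEX library. OBP2 (AT1G07640), a regulator of glucosinolate synthesis, measured 35.99, 30.05 and 32.6 CPM at 1 h and 14.3, 14.02 and 14.1 CPM at 4 h, with 25.6 to 32.2 CPM in the control. The higher member, DOF1.6, measured 0.410 to 0.660 CPM at 1 h and 1.08 to 1.11 CPM at 4 h; its call was lost when any 1 of the 6 libraries was left out, with a largest adjusted p of 0.125 among these, and DESeq2 gave 0 higher in the family. The DOF core AAAG stood in 99.2% of all tested promoters and in 99.3% of those of genes at least 2-fold higher or 2-fold lower.

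Markers of cell types were used to see which tissues the tips held. PLT1, PLT2, PLT3 and BBM, which define the meristem, were present at mean levels of 22.0, 12.1, 39.03 and 7.53 CPM at 1 h, and none was called. WOX5 (AT3G11260), the marker of the quiescent centre, fell from 3.93, 3.74 and 4.92 CPM to 0.813, 1.02 and 1.45 CPM, a log2 fold change of -1.93 ± 0.26 (adjusted p = 0.000247). Of 9 endodermis markers SGN3 alone was called, at -1.19, and the CASP genes were not. In the root cap SMB and BRN2 were higher, by 0.48 and 0.49, and 3 of 5 markers were not called. Among 9 epidermis and root hair markers RHD6 was higher and COBL9 lower. The call of COBL9 was lost without 1 h replicate 1 or 2 (largest adjusted p = 0.0511). Called shares of the meristem, root cap, epidermis and endodermis markers were 20%, 40%, 22.2% and 11.1%, against 42.1% over all genes.

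Most phloem and xylem markers fell. Of 10 phloem markers 7 were lower (70%, against 21.4% over all genes), 0 were higher and 3 were not called, with a median of -0.82. None was higher at an unadjusted p under 0.05 in edgeR, nor by DESeq2 or limma voom. SUC2 (AT1G22710), the sucrose carrier of companion cells, measured 55.3, 42.4 and 39.3 CPM at 1 h, 24.2, 19.7 and 24.2 CPM at 2 h and 11.9, 16.8 and 12.3 CPM at 4 h, a log2 fold change of -1.74 ± 0.16 (adjusted p = 7.28e-05). SMXL5 (AT5G57130), which promotes phloem formation, measured 39.3, 30.9 and 25.3 CPM at 1 h and 12.7, 12.1 and 10.4 CPM at 4 h. Of 7 xylem markers tested 5 were lower (71.4%, against 21.4% over all genes). CESA7 (AT5G17420), a cellulose synthase of secondary walls, was among them. It measured 42.9, 35.3 and 30.7 CPM at 1 h and 18.3, 20.7 and 14.7 CPM at 4 h. VND7 and MYB46, factors of xylem formation, were not called. The summed phloem markers were 210, 177 and 161 CPM at 1 h, 95.7, 96.7 and 86.6 CPM at 4 h and 144 to 160 CPM in the control. The summed xylem markers were 249 to 315 CPM at 1 h and 187 to 206 CPM at 4 h. In such bulk samples fewer cells of a type and less RNA per cell cannot be told apart, and the part of these shifts in the fall of the vascular, auxin and DOF genes was not tested.

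**Figure D4:**
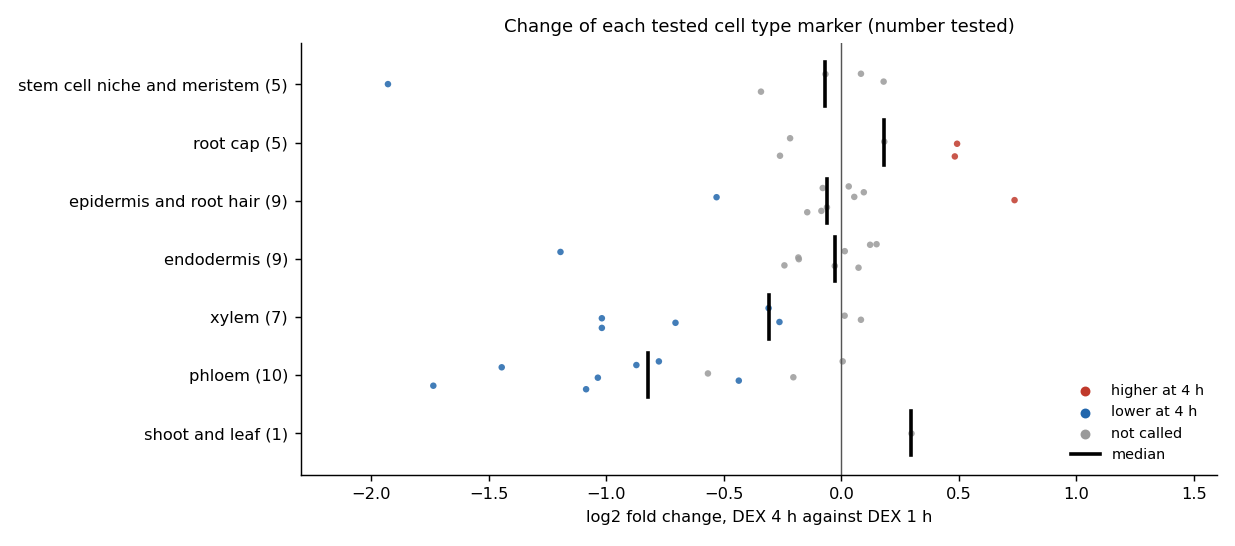
Log2 fold change of DEX 4 h against DEX 1 h (x axis) for each tested cell type marker (y axis, number tested in brackets), with red for called higher, blue for called lower and grey for not called, and black bars for medians. Phloem markers (median -0.82) and xylem markers lie mostly to the left of 0, while meristem and endodermis markers gather around 0 apart from WOX5 and SGN3.

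Further genes with steep falls belonged to root nutrition and defence. The iron transporter IRT1 (AT4G19690) measured 87.4, 35.3 and 25.99 CPM at 1 h, 22.2, 20.12 and 5.94 CPM at 2 h and 7.76, 4.12 and 6.43 CPM at 4 h, with 26.7 to 32.7 CPM in the control. The first 1 h library stood well above the other two, and the call (adjusted p = 0.0219) was lost when any 1 of the 4 h libraries was left out, with a largest adjusted p of 0.0697. CYP82C4 (AT4G31940), an oxygenase of iron-mobilising coumarins, measured 26.1, 10.6 and 8.43 CPM at 1 h and 2.22, 0.761 and 1.45 CPM at 4 h. TAT3 (AT2G24850), a tyrosine aminotransferase, measured 68.2, 102 and 88.3 CPM at 1 h and 9.31, 11.9 and 10.0 CPM at 4 h, a log2 fold change of -3.04 ± 0.16 (adjusted p = 2.36e-06). The peroxidase AT2G41480 measured 69.1, 44.0 and 48.4 CPM at 1 h and 5.91, 8.31 and 8.15 CPM at 4 h. PYK10 (AT3G09260), a beta-glucosidase of endoplasmic reticulum bodies, had the largest loss in CPM, from 4306, 3482 and 2693 CPM to 1899, 1944 and 1927 CPM. JAL34 (AT3G16460), a lectin, followed, with a log2 fold change of -1.02 ± 0.12 (adjusted p = 9.16e-05).

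Among uncharacterised risers, AT4G16810, annotated as a polycomb-type VEFS-box protein, measured 1.78, 2.201 and 3.34 CPM at 1 h, 6.67, 8.29 and 9.04 CPM at 2 h and 16.9, 14.7 and 18.4 CPM at 4 h. The control libraries held 0.122 to 0.351 CPM, below every DEX library. AT1G26680, a B3 domain factor, measured 12.97, 11.01 and 10.9 CPM at 1 h, 18.4, 22.4 and 27.2 CPM at 2 h and 48.3, 49.0 and 58.5 CPM at 4 h, a log2 fold change of 2.15 ± 0.11 (adjusted p = 9.61e-07). Its control libraries held 4.79 to 6.32 CPM. The 2 h libraries of both genes lay between the 1 h and the 4 h libraries, which the naming rule had chosen not to overlap.

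The 2 h libraries were set beside both ends. The level at 2 h was tested against the midpoint of 1 h and 4 h on the log2 scale, and 580 of 19733 genes (2.94%) departed from the midpoint. This contrast is independent of the difference between the ends only where both ends vary equally. The 1 h libraries were spread more widely, and genes chosen for a large change then tend to lie ahead of the midpoint through that spread alone. The medians and the splits ahead and behind given next therefore cannot decide the course. Genes at least 2-fold higher at 4 h had made a median of 58.6% of their log2 change by 2 h, and genes at least 2-fold lower 66.2%. Among the 429 higher genes with a value 29 were called ahead of the midpoint and 4 behind it, and among 833 lower genes 55 were ahead and 3 behind. AOC2, HB7 and CDF4 had made 85.3%, 95.3% and 86.3% of their fall by 2 h. Other named genes went the other way. On the log2 scale the 2 h levels of CDC20.1, PRR7 and TCH3 given above lay nearer to 1 h than to 4 h. The count rested on single libraries, since it was 36 without 2 h replicate 1, 37 without 2 h replicate 3, 143 without 2 h replicate 2, 331 without 1 h replicate 2, 386 and 380 without 4 h replicates 1 and 2, and 2019 without 1 h replicate 3.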

How the data were processed

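RNA-seq libraries of 6 samples, DEX 1 h and DEX 4 h with 3 repeats each, were compared, and the 3 DEX 2 h libraries entered 1 further contrast. Per locus, the deposited files give estimated counts, some of them fractional. Per the submitters' processing notes the tools were CASAVA, GSNAP, HTSeq and edgeR and the build was TAIR10; versions, roles and the strand setting of counting are not given in the sources used here. Per the labels' protocols the RNeasy kit served for extraction and the TruSeq Stranded mRNA kit for the libraries.

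Counts were rounded and tested with edgeR 4.0.16 (R 4.3.3; filterByExpr with a minimum count of 10 and total of 15, TMM, robust glmQLFit and glmQLFTest) over the 6 libraries, with group as the only term. Adjustment followed Benjamini and Hochberg across the 19476 loci tested, and adjusted p-values come from this test unless a setting or a left-out library is named, where they come from that fit and its own loci. P-values measure the spread between 3 repeats a group. The 2 h contrast used all 12 libraries. CPM are counts over TMM-scaled totals of the 12 libraries, and 1 count was worth 0.0538 to 0.0739 CPM. Loci called whole (16491, 84.7% of those tested) were within 0.01 of a whole number in all 6 libraries.

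Gene names, products and promoters came from RefSeq's annotation of TAIR10.1, in which 28009 of 28775 loci matched; some list names are not RefSeq symbols and follow common use. Of 130 genes taken up by the naming rule, 25 had counts that were not whole and 27 overlapped a gene on the other strand, from which their reads may come in part. The rule took, in each direction, the 12 largest changes among called genes without overlap whose mean log2 CPM reached 2, the 3 largest gains and losses in CPM, up to 3 called genes per list and direction, and a fixed set around DOF2.1. Other members are named from the lists to show their range. The members, lists and rules were chosen with earlier results of these data known. Alternatives were DESeq2 1.42.0, limma 3.58.1 (voom with sample quality weights), other scalings, filters, libraries and thresholds, offsets for GC content and length, a replicate block and leaving out each library.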

Additional observations from a re-analysis of the deposited data

How the results depend on the processing

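The number of called genes, 8190, ran from 5684 to 9098 when 1 library was left out. It was 4879 at an adjusted p under 0.01, 7068 with DESeq2 and 10283 with limma's quality weights. The share of calls that were higher, 49.2%, was 37.22% with library totals. Libraries of the same number did not vary together (correlations -0.02, 0.027 and -0.041), so the numbers were not treated as pairs. The replicate block gave 7514 calls and 1232 of at least 2-fold, against 8190 and 1263, and 836 rather than 580 departures from the midpoint at 2 h. That last count ran from 36 to 2019 when 1 library was left out. Of 122 called genes named by the rule, 83 were called under every alternative that tested them, 39 were lost under 1 or more and 0 reversed. Genes whose counts were not whole were not tested in the fit with whole counts only. List counts moved by over 1.5 times in 134 of 722 recomputations. The causes were not tested. Genes below about 1 CPM rest on few counts, and small changes there were not detectable at this depth.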

Other observations

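Some families not on the lists, picked by their annotation after the values had been seen, moved largely one way. Of 22 tested genes of the Sm type, core proteins of the spliceosome, 20 were higher at 4 h, 0 were lower and 2 were not called. FKBP-type and cyclophilin-type isomerases, which help proteins fold, had 13 of 16 and 15 of 20 members higher and 0 lower. In these 3 families edgeR gave 0 lower at an unadjusted p under 0.05, as did DESeq2 and limma voom at their adjusted thresholds. Genes annotated as proteins of the Cys/His-rich C1 domain had 56 of 104 members lower and 1 higher, with a median log2 fold change of -0.68. The TIR-NBS-LRR class of immune receptors had 35 of 61 lower and 1 higher. Carriers of the multidrug and MATE types had 33 of 54 lower and 4 higher, and EXO70 subunits of the exocyst 11 of 18 lower and 0 higher, with 0 higher also unadjusted, by DESeq2 and by limma voom. Offsets for GC content and length made the medians of these families smaller in size. The Sm median went from 0.57 to 0.29 and the TIR-NBS-LRR median from -0.6 to -0.3. For the carriers it went from -0.54 to -0.34, and for EXO70 from -0.43 to -0.33. The C1 domain, FKBP and cyclophilin medians went from -0.68, 0.68 and 0.31 to -0.59, 0.52 and 0.29. Other families picked by their annotation were more mixed. Peroxidases had 10 of 56 higher and 16 lower, and HSP20-like chaperones 10 of 26 higher and 2 lower. Arabinogalactan proteins had 21 of 44 higher and 4 lower. These counts stand beside 20.7% higher and 21.4% lower over all genes.

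Gibberellin 20-oxidases, which make the precursors of active gibberellins, differed by gene. GA20OX3 (AT5G07200) measured 0.0538, 0.165 and 0.293 CPM at 1 h and 2.07, 1.59 and 2.21 CPM at 4 h. Its control libraries held 0.878, 0.887 and 1.83 CPM, above every 1 h library. GA20OX2 (AT5G51810) measured 0.215, 0.110 and 0.176 CPM at 1 h and 1.405, 1.14 and 0.967 CPM at 4 h. Its control libraries held 0.118 to 0.793 CPM. GA20OX5 (AT1G44090) went the other way, from 0.861, 1.65 and 0.761 CPM to 0.0739, 0.0634 and 0.207 CPM. Some iron uptake genes beside IRT1 were lower as well. FIT (AT2G28160), their regulator, measured 44.01, 37.2 and 31.3 CPM at 1 h and 12.5, 16.05 and 13.5 CPM at 4 h, and the reductase FRO2 (AT1G01580) 37.3, 15.7 and 12.3 CPM against 5.40, 4.31 and 3.39 CPM. The call of FRO2 (adjusted p = 0.0263) was lost without any 1 of the 4 h libraries, with a largest adjusted p of 0.0765. Its first 1 h library stood well above the other 1 h libraries. Of the bHLH factors looked at beside them, bHLH38 and bHLH39 were called lower, with log2 fold changes of -3.50 and -2.44. The factor bHLH101 was not called (-1.51, adjusted p = 0.191), and bHLH100 had too few counts to be tested. AT5G14820, annotated as a pentatricopeptide repeat protein, fell to 0 counts in all 3 libraries at 4 h from 2.15, 2.04 and 1.29 CPM at 1 h, and its counts were not whole. These genes too were picked after their values had been seen.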
